A study of Mus musculus domesticus with 12 samples.

Results

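The genes described here are 41 DNA damage checkpoint and repair genes of the mouse, out of 55385 genes in the deposited tables. The rule that picks them is a list of gene names and uses no measured value, although earlier results of these data were known when the list was drawn up. They were sorted into 7 routes by textbook role: 8 checkpoint sensors and kinases, 4 proteins that mark breaks on chromatin, 4 that recognise and resect broken ends, 11 of homologous recombination, 5 of the Fanconi anemia pathway, 5 of non-homologous end joining, and 4 of single-strand break, excision and mismatch repair. All 41 were found under their symbols in the gene annotation, with claspin under its symbol Clspn, and all 41 passed the filter on low counts.

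When both strands of DNA break, the Mre11a-Rad50-Nbn complex binds the ends and activates the kinase ATM, while single-stranded DNA at stalled replication forks recruits the kinase ATR through its partner ATRIP. The kinases signal through CHK2 and CHK1 to hold the cell cycle, and repair follows either by joining the ends directly or, in S and G2 phase, by copying the sister chromatid. Erythroid precursors divide rapidly before they mature, and inherited loss of the Fanconi anemia genes, which repair crosslinks between DNA strands, is known for failure of blood formation.

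The study sequenced RNA from erythroid precursors of C57BL/6J mouse embryos at stage E14.5, a stage at which the fetal liver is the main site of red cell production. Liver cells depleted of cells with mature lineage markers were infected with a GFP-marked retrovirus carrying a short hairpin RNA (shRNA) against firefly luciferase (shLuc, the control), against Dis3 (shDis3) or against Exosc10 (shExosc10). Dis3 and Exosc10 are the catalytic subunits of the RNA exosome, the complex that trims and degrades RNA from its 3′ end. Infected cells were held for 2 days in a medium that expands erythroid precursors, and GFP-positive cells that lacked Ter119, a marker of more mature erythroblasts, and carried intermediate or positive CD71, the transferrin receptor, were sorted, giving 4 libraries per group. All 3 groups therefore share the retrovirus, GFP, the culture and the sort. Whether the 4 libraries of a group are separate cultures or embryos is not stated in the labels. The p-values are therefore relative to the spread of these libraries alone, which may be technical.

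Library totals lay between 14936200 (shDis3 replicate 2) and 32397204 expected counts (shDis3 replicate 3). Dis3 stood at 131 ± 20.3 CPM in shLuc and 38.3 ± 12.1 CPM in shDis3, and Exosc10 at 98.2 ± 12.01 CPM in shLuc and 26.4 ± 5.497 CPM in shExosc10 (mean ± SD, n = 4; CPM are read counts scaled to a common library total with TMM factors). The erythroid regulators Gata1 (81.9 to 133 CPM) and Klf1 (85.0 to 198 CPM) were present in all 12 libraries, and Alb, the hepatocyte albumin gene, was between 0 and 4.41 CPM. The granulocyte peroxidase Mpo reached 3746 CPM and ranged down to 583 CPM. Over all genes tested, most libraries lay closest to a library of another group, for example shDis3 replicate 3 to shLuc replicate 4 (Pearson r 0.986 across genes, which are not independent) and shDis3 replicate 4 to shExosc10 replicate 1 (r 0.981). The targeted genes matched the labels in all 12 libraries: Dis3 was 24.7 to 52.4 CPM in the shDis3 libraries and 113 to 196 CPM in the rest, and Exosc10 was 18.9 to 30.8 CPM in the shExosc10 libraries and 80.1 to 141 CPM in the rest. What else the libraries that resemble each other across groups have in common is not stated in the labels and was not tested, and it bears on every comparison between groups below. Sorted into 3 clusters by correlation, replicates 1, 3 and 4 of shDis3 fell together with replicate 4 of shLuc and replicate 1 of shExosc10. Some of the results that move with them are also given without replicate 4 of shLuc, replicate 4 of shDis3 and replicate 1 of shExosc10 together, called below the 3 libraries set apart. Replicates 1 to 3 of shDis3 are kept there. Its differences then rest more on replicates 1 and 2, which were low in many members (below).

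In the control cells the 41 genes spanned a 112-fold range of transcript level. TPM divides the counts by gene length before scaling and is the scale used here to compare one gene with another. The median member had a mean of 14.54 TPM in shLuc, against 3.20 TPM for the median of all 17650 genes tested. Above 50 TPM were 4 members, 31 lay from 5 to 50 TPM, and 6 were under 5 TPM. In the order of the shLuc means, the range of every gene over the 4 libraries overlapped with that of the next one. The genes share these libraries, whose summed TPM over the 41 genes ran from 625 to 1291. Within each shLuc library, Tipin exceeded Parp1, Parp1 exceeded Topbp1 and Topbp1 exceeded Xrcc6, so overlapping ranges do not mean equal levels.

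**Figure D1:**
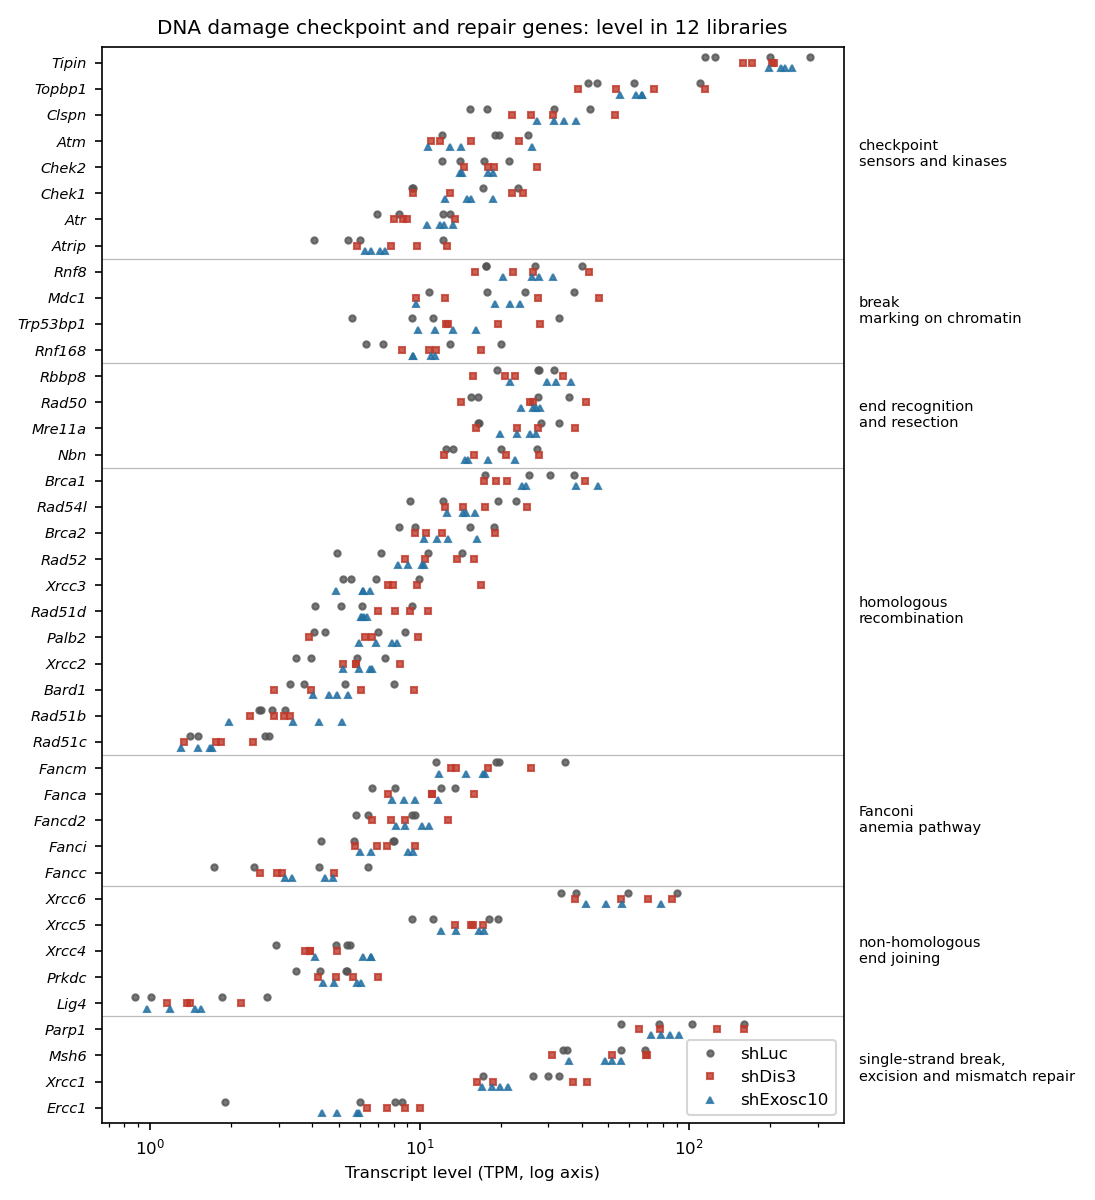
Transcript level in TPM (log axis) of the 41 genes, grouped by repair route, in the 12 libraries; each symbol is 1 library and the colours mark the 3 groups. Tipin lies highest and Lig4 lowest, a 112-fold difference of shLuc means, and the 3 groups of symbols overlap widely in nearly every row.

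The highest member was Tipin, whose product travels with the replication fork and helps to activate CHK1. It had 125, 281, 115 and 199.7 TPM in shLuc replicates 1 to 4, 171, 158, 206 and 203 TPM in shDis3, and 242, 198, 226 and 220 TPM in shExosc10. The shLuc libraries alone spanned the values of the shDis3 and shExosc10 libraries. Parp1, the poly(ADP-ribose) polymerase that binds nicked DNA, followed with a shLuc mean of 98.9 ± 44.8 TPM (SD, n = 4). Topbp1, an activator of ATR, had 64.9 ± 31.1 TPM, and Xrcc6, which encodes the Ku70 subunit of the DNA end-binding Ku dimer, had 55.2 ± 25.8 TPM. These 4 genes were the ones above 50 TPM.

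The lowest members were Lig4, the ligase that seals joined ends (1.61 ± 0.852 TPM in shLuc, SD, n = 4), the homologous recombination genes Rad51c (2.08 ± 0.732 TPM) and Rad51b (2.77 ± 0.288 TPM), the Fanconi core gene Fancc (3.71 ± 2.11 TPM), the end-joining kinase Prkdc (4.61 ± 0.923 TPM) and the ligase partner Xrcc4 (4.67 ± 1.20 TPM). So 3 of the 5 end-joining genes were among the 6 lowest, while Xrcc6 of the same route was among the 4 highest. The lowest count of any member in any library was 70, for Rad51c, so counting noise is part of the spread of these low genes.

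The routes also differed in level. The median gene had 37.5 TPM in the route of single-strand break, excision and mismatch repair, 23.7 TPM in end recognition and resection, 18.7 TPM in break marking and 17.6 TPM among the checkpoint genes. It had 7.80 TPM in the Fanconi pathway, 6.17 TPM in homologous recombination and 4.67 TPM in end joining. Within homologous recombination, Brca1 was highest at 27.7 ± 8.35 TPM, with Rad54l at 15.9 ± 6.33 and Brca2 at 13.1 ± 4.94 TPM (SD, n = 4). No other gene of that route exceeded a shLuc mean of 9.28 TPM, the level of Rad52.

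Neither knockdown gave a called change in any of the 41 genes. Differences between groups were tested on the counts with the quasi-likelihood test of edgeR, which fits all genes and all 12 libraries together, and a gene is called where its Benjamini-Hochberg adjusted p over 17650 genes is under 0.05. Calls numbered 0 of 41 for shDis3 against shLuc (0% of all genes were called), 0 of 41 for shExosc10 against shLuc (0.00567% of all genes, which is Exosc10 itself) and 0 of 41 for shDis3 against shExosc10 (0.0113% of all genes, which are Dis3 and Exosc10). Dis3 itself was not called in shDis3 against shLuc, at a log2 fold change of −1.78 (SE 0.24, adjusted p = 0.0581). With so few calls among all genes, the absence of calls among the members is not particular to them. At an unadjusted p under 0.05 there were 0, 2 and 3 members, against 4.07%, 2.10% and 5.98% of all genes. DESeq2 called 0 members in each comparison and had 1, 3 and 6 members under an unadjusted p of 0.05, against 5.27%, 2.95% and 8.10% of the same genes.

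The intervals show how large a change these data leave possible. For shDis3 against shLuc, the 95% interval of the log2 fold change lay within a 2-fold change in either direction for 39 of 41 members, against 46.2% of all genes. The exceptions were Atm and Rad51c, whose intervals reached −1.08 and −1.07. For shExosc10 against shLuc it lay within 2-fold for 40 of 41 members (47.8% of all genes), the exception being Atm with a lower bound of −1.13. For shDis3 against shExosc10 the count was 39 of 41 (44.5% of all genes), the exceptions being Xrcc4 (lower bound −1.19) and Rad51b (−1.11). Smaller changes, inside these intervals, were not detectable at this spread between libraries. A larger change need not be called either, as Dis3 at −1.78 in shDis3 against shLuc was not.

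**Figure D2:**
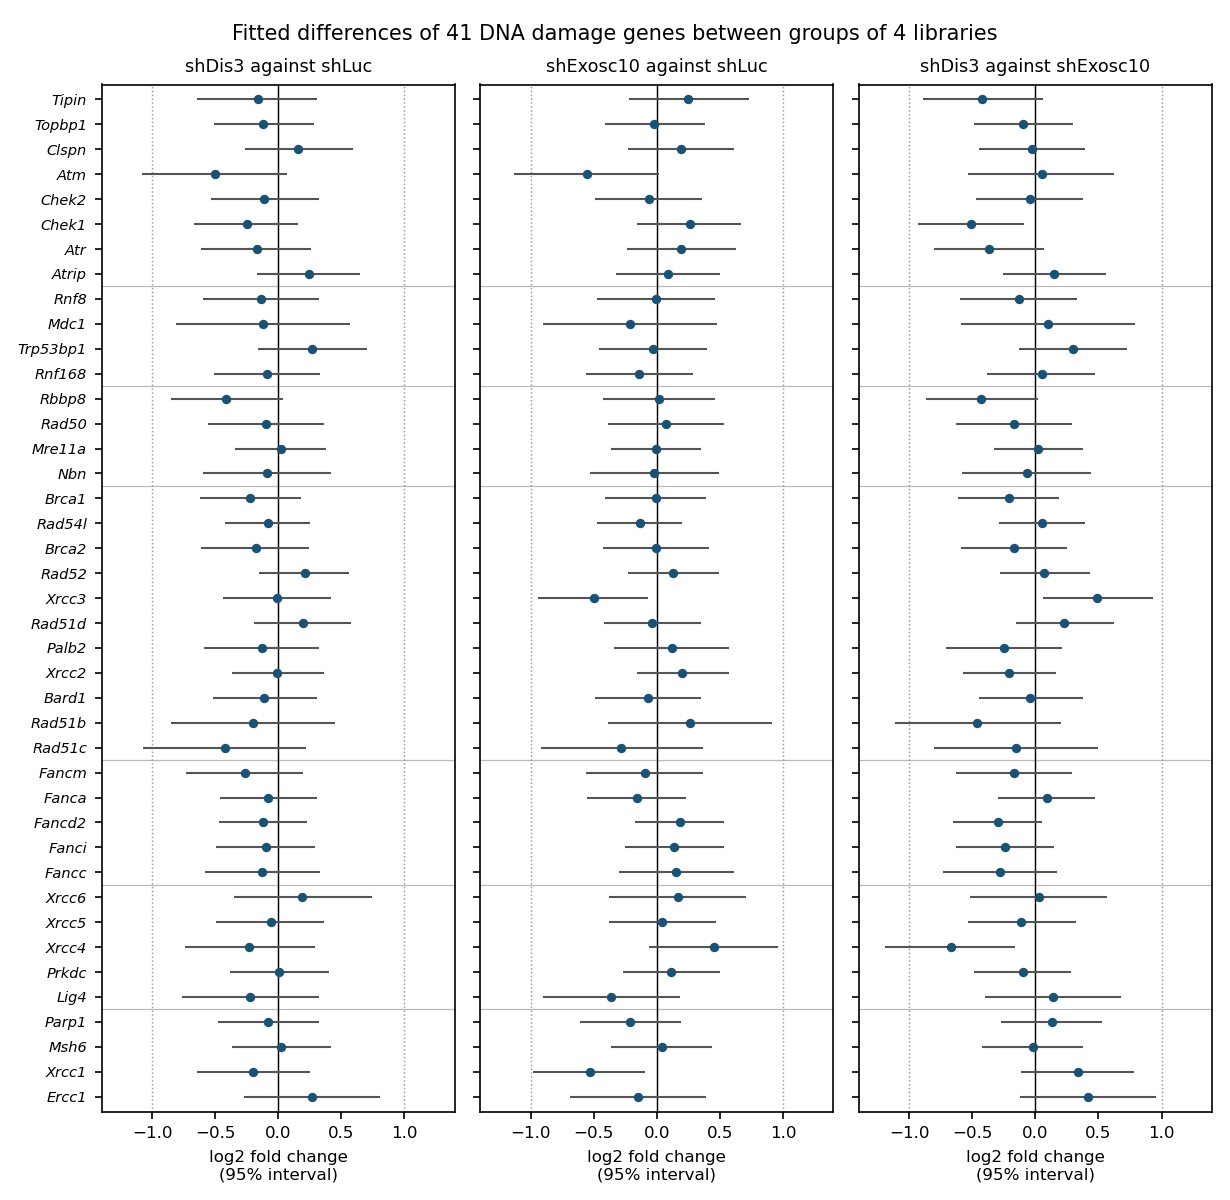
Fitted log2 fold change (points) with its 95% interval (lines) for the 41 genes in the 3 comparisons, grouped by route; dotted lines mark a 2-fold change. No point lies outside the dotted lines, and 39, 40 and 39 of the 41 intervals lie wholly between them.

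The members varied less between libraries than most genes. Their median biological coefficient of variation, estimated by edgeR gene by gene, was 21.6%, against 37.4% over all genes tested, whose levels were lower. Rad54l (17.8%), Fancd2 (18.6%) and Mre11a (18.6%) varied least, and Rad51c (33.5%), Rad51b (32.8%) and Mdc1 (32.4%) varied most. By group, the median coefficient of variation of CPM over the 4 libraries was 14.48% in shLuc, 22.3% in shDis3 and 12.4% in shExosc10, against 33.4%, 33.8% and 30.4% for all genes.

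Among the checkpoint genes, none was called in either knockdown. The median log2 fold change of the 8 genes was −0.14 for shDis3 and 0.14 for shExosc10, each against shLuc. Chek1 encodes CHK1, the kinase that ATR activates (chromosome 9, 36708482 to 36727065, GRCm38). Its level was 37.3, 33.5, 27.4 and 24.6 CPM in shLuc replicates 1 to 4, 21.7, 21.5, 25.6 and 34.2 CPM in shDis3, and 39.7, 32.6, 39.1 and 35.3 CPM in shExosc10. The shDis3 replicates 1 and 2 lay below every other library, while shDis3 replicate 4 lay within the range of both other groups. The log2 fold change was −0.25 (SE 0.20, adjusted p = 1) for shDis3 against shLuc and −0.51 (SE 0.20, adjusted p = 0.769, 95% interval −0.93 to −0.09) for shDis3 against shExosc10. On the TPM scale, tested with limma on log2(TPM + 1), these 2 differences had the opposite sign, 0.21 and 0.07. Without the 3 libraries set apart, the difference between shDis3 and shExosc10 in the count fit was −0.65 (adjusted p = 0.0634), still not called.

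Atm, the kinase of the double-strand break response (chromosome 9, 53439149 to 53536740), had the lowest fitted difference of all members in both knockdowns against control. Its levels were 187, 104, 101 and 112 CPM in shLuc, 66.3, 70.0, 114 and 106 CPM in shDis3, and 82.6, 58.5, 82.8 and 121 CPM in shExosc10. A single control library, replicate 1, stood far above the rest, and the groups overlapped. The log2 fold changes were −0.50 (SE 0.27) for shDis3 and −0.55 (SE 0.27) for shExosc10, both with adjusted p = 1, and both comparisons use the same shLuc libraries. Without shLuc replicate 1 they were −0.24 and −0.29. Tipin differed by −0.42 (SE 0.22, adjusted p = 0.824) between shDis3 and shExosc10.

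The remaining checkpoint genes gave smaller values. Atr, the kinase of replication stress, had 88.8, 69.9, 62.3 and 60.8 CPM in shLuc, 47.2, 51.2, 66.0 and 85.1 CPM in shDis3, and 90.7, 76.1, 83.6 and 72.1 CPM in shExosc10. As for Chek1, shDis3 replicates 1 and 2 were the lowest of the 12 libraries. The intervals of Atrip (−0.17 to 0.65), Topbp1 (−0.51 to 0.28), Clspn (−0.26 to 0.59) and Chek2 (−0.53 to 0.32) all included 0 for shDis3 against shLuc. The kinase and its partner gave the ratio Atr to Atrip on the TPM scale, which lay between 1.68 and 1.87 in the 4 shExosc10 libraries and between 0.826 and 1.53 in shDis3. The shLuc libraries, from 1.06 to 2.06, overlapped with both, and the ratio was not tested.

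The genes that mark breaks on chromatin gave a median of −0.10 for shDis3 and −0.08 for shExosc10 against shLuc, with none of 4 called. Rnf8 is the ubiquitin ligase that recruits repair proteins to breaks and was the highest of the route in shLuc (25.5 ± 10.6 TPM, SD, n = 4). Its CPM were 48.1, 42.5, 41.1 and 47.3 in shLuc, 31.1, 28.6, 49.0 and 53.5 in shDis3, and 57.3, 39.7, 39.8 and 41.3 in shExosc10. Again shDis3 replicates 1 and 2 lay below the other 10 libraries and the other shDis3 replicates lay above all of shLuc. Trp53bp1, which encodes 53BP1 and steers breaks toward end joining, had a log2 fold change of 0.27 (SE 0.20, adjusted p = 1) for shDis3 against shLuc. Rnf168, the ligase that acts after RNF8, had −0.14 (SE 0.20, adjusted p = 1) for shExosc10 against shLuc.

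Mdc1, the scaffold that binds phosphorylated histone H2AX, had a different pattern. It stood at 50.5 CPM in shDis3 replicate 4 and 51.8 CPM in shExosc10 replicate 1, and between 80.1 and 155 CPM in the other 10 libraries. Those same 2 libraries had the highest levels of Xrcc6. It had 99.6, 102, 93.9 and 113.5 CPM in shLuc, 98.2, 73.7, 118 and 177 CPM in shDis3, and 165, 102, 105 and 86.1 CPM in shExosc10. The 2 libraries belong to different groups but were each other's nearest neighbour over all genes. The group means of Mdc1 differed by −0.12 (SE 0.32, adjusted p = 1) for shDis3 and by −0.21 (SE 0.32, adjusted p = 1) for shExosc10 against shLuc.

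In end recognition and resection, none of 4 genes was called, and the medians were −0.10 for shDis3 and 0.01 for shExosc10 against shLuc. Rbbp8 encodes CtIP, which starts the trimming of broken ends with the MRE11 nuclease (chromosome 18, 11633276 to 11745221). Rbbp8 stood at 96.5, 74.9, 68.8 and 64.6 CPM in shLuc, 43.9, 44.6, 66.1 and 74.7 CPM in shDis3, and 89.5, 67.5, 81.7 and 70.1 CPM in shExosc10. Replicates 1 and 2 of shDis3 lay below every other library, and replicates 3 and 4 lay among the libraries of the other groups. Its log2 fold change had the smallest p of any member for shDis3 against shLuc, −0.41 (SE 0.21, unadjusted p = 0.0693, adjusted p = 1), and was −0.43 (SE 0.21, adjusted p = 0.824) for shDis3 against shExosc10. Without the 3 libraries set apart, the difference from shLuc was −0.63 (adjusted p = 0.109), not called.

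The 3 genes of the end-binding complex were compared as TPM ratios. Mre11a, the nuclease, stood to Rad50, the ATPase, at 0.915 to 1.07 in shLuc, 0.899 to 1.13 in shDis3 and 0.737 to 1.03 in shExosc10. Nbn, which brings in ATM, stood to Rad50 at 0.732 to 0.857, 0.600 to 0.861 and 0.543 to 0.810 in the same groups, and the ranges overlapped in every pair of groups. For shExosc10 against shLuc, Rad50 had a log2 fold change of 0.07 (SE 0.22, adjusted p = 1), which was −0.01 without shExosc10 replicate 1.

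In homologous recombination, none of 11 genes was called, and the medians were −0.11 for shDis3 and −0.01 for shExosc10 against shLuc. Brca1, which forms a ubiquitin ligase with Bard1, had 121, 119, 105 and 113 CPM in shLuc, 78.6, 72.8, 129.9 and 113 CPM in shDis3, and 108, 109, 114 and 125 CPM in shExosc10. Brca2, a tumour suppressor that acts after resection, had 72.0 and 71.0 CPM in shDis3 replicates 1 and 2 and 84.3 to 127 CPM in the other libraries. Both genes were thus lowest in the same 2 libraries, and Brca1 and Brca2 had intervals of −0.62 to 0.18 and −0.61 to 0.24 for shDis3 against shLuc.

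Xrcc3, of the same route (chromosome 12, 111803192 to 111813873) had 11.9, 13.5, 11.9 and 14.9 CPM in shLuc, 12.9, 10.4, 16.8 and 11.8 CPM in shDis3, and 11.2, 7.65, 8.51 and 9.54 CPM in shExosc10. All 4 shExosc10 libraries lay below all shLuc libraries, and the highest shExosc10 value was 11.2 against a lowest shLuc value of 11.9 CPM. For shExosc10 against shLuc, the groups did not overlap in 2 of 41 members, Xrcc3 and Xrcc1, against 2.48% of all genes. The log2 fold change of Xrcc3 was −0.50 (SE 0.20, 95% interval −0.94 to −0.07, adjusted p = 1), and between shDis3 and shExosc10 it was 0.49 (SE 0.20, 95% interval 0.06 to 0.93, adjusted p = 0.786). On the TPM scale the shLuc (5.21 to 9.91) and shExosc10 (4.90 to 6.54) ranges of Xrcc3 overlapped.

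Rad52, which can anneal single strands, was the member whose shDis3 libraries all lay above shLuc. It had 11.4, 14.7, 15.1 and 14.9 CPM in shLuc, and 17.4, 16.6, 15.6 and 15.1 CPM in shDis3. In this comparison the groups did not overlap in 1 member of 41, against 1.70% of all genes, and between shDis3 and shExosc10 they did not overlap in 0 of 41, against 3.71%. The gap between the nearest libraries, 15.1 and 15.14 CPM, was far smaller than the spread within either group, and the log2 fold change was 0.21 (95% interval −0.15 to 0.56, adjusted p = 1). Rad51c, at the low end of expression, had −0.42 (SE 0.30, adjusted p = 1) for shDis3 against shLuc. The intervals of Rad51d (−0.19 to 0.58) and Rad51b (−0.85 to 0.45) included 0 in the same comparison.

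The Fanconi anemia genes had fitted values below 0 in 5 of 5 for shDis3 and in 2 of 5 for shExosc10 against shLuc, with medians of −0.12 and 0.14 and none called. Fancm encodes a DNA translocase that anchors the Fanconi core complex on damaged DNA. It had 69.8, 49.6, 46.7 and 56.7 CPM in shLuc, 38.2, 31.6, 62.5 and 53.3 CPM in shDis3, and 54.9, 47.5, 47.4 and 59.2 CPM in shExosc10. Once more replicates 1 and 2 of shDis3 lay below all others, and the log2 fold change was −0.26 (SE 0.22, adjusted p = 1). Fancd2 and Fanci encode the 2 proteins that the core complex ubiquitinates as a pair. Fancd2 had 0.18 (SE 0.16, adjusted p = 1) for shExosc10 against shLuc, and the TPM ratio of Fancd2 to Fanci stayed between 0.960 and 1.37 in all 12 libraries. The intervals of Fanca and Fancc, members of the core complex, also included 0 in each comparison.

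In non-homologous end joining none of 5 genes was called, with medians of −0.06 for shDis3 and 0.11 for shExosc10 against shLuc. Xrcc4 encodes the scaffold that holds DNA ligase IV at the ends (chromosome 13, 89774027 to 90089608). Xrcc4 had 8.76, 8.04, 6.16 and 6.27 CPM in shLuc, 6.58, 6.39, 4.39 and 7.63 CPM in shDis3, and 11.5, 7.36, 9.77 and 11.2 CPM in shExosc10. The shExosc10 libraries held the 3 highest values, and replicate 2 of shExosc10 lay below replicate 4 of shDis3. The difference between shDis3 and shExosc10 had the smallest p of any member in that comparison, −0.67 (SE 0.24, 95% interval −1.19 to −0.16, adjusted p = 0.764), while against shLuc it was −0.23 (SE 0.24) for shDis3 and 0.45 (SE 0.24) for shExosc10, both with adjusted p = 1.

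Its partner Lig4 had −0.36 (SE 0.25, adjusted p = 1) for shExosc10 against shLuc. The TPM ratio of Xrcc4 to Lig4 ranged from 2.03 to 4.86 in shLuc, 1.81 to 3.59 in shDis3 and 2.79 to 6.83 in shExosc10. Xrcc6 exceeded Xrcc5, which encodes its dimer partner Ku80, in every library, with TPM ratios of 3.04 to 4.98 in shLuc, 2.78 to 4.99 in shDis3 and 3.40 to 4.51 in shExosc10. The Ku subunits thus kept the same order of transcript level in all groups. Prkdc, the kinase that the Ku dimer recruits, had an interval of −0.38 to 0.40 for shDis3 and −0.27 to 0.50 for shExosc10 against shLuc.

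In single-strand break, excision and mismatch repair, none of 4 genes was called, and the medians were −0.03 for shDis3 and −0.18 for shExosc10 against shLuc. Xrcc1, the scaffold of single-strand break repair (chromosome 7, 24546289 to 24573440), had 54.7, 49.5, 63.0 and 47.6 CPM in shLuc, 63.7, 36.99, 49.0 and 37.6 CPM in shDis3, and 29.1, 46.0, 38.2 and 35.2 CPM in shExosc10. All shExosc10 libraries lay below all shLuc libraries. The log2 fold change had the smallest p of any member for shExosc10 against shLuc, −0.53 (SE 0.21, 95% interval −0.98 to −0.09, unadjusted p = 0.022, adjusted p = 1). The ranges of Xrcc1 overlapped on the TPM scale, 17.1 to 32.8 in shLuc and 17.0 to 21.3 in shExosc10.

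Parp1, which recruits XRCC1, had 388, 400, 430 and 482 CPM in shLuc, 454, 283, 478 and 397 CPM in shDis3, and 375, 412, 387 and 300 CPM in shExosc10. Its lowest value was in shDis3 replicate 2, and its intervals were −0.48 to 0.32 for shDis3 and −0.61 to 0.19 for shExosc10 against shLuc. Ercc1, part of the nuclease that cuts beside bulky lesions and crosslinks, had 0.27 (SE 0.25, adjusted p = 1) for shDis3 against shLuc. Msh6, which detects mismatched bases, had intervals of −0.37 to 0.42 and −0.36 to 0.44 for shDis3 and shExosc10.

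**Figure D3:**
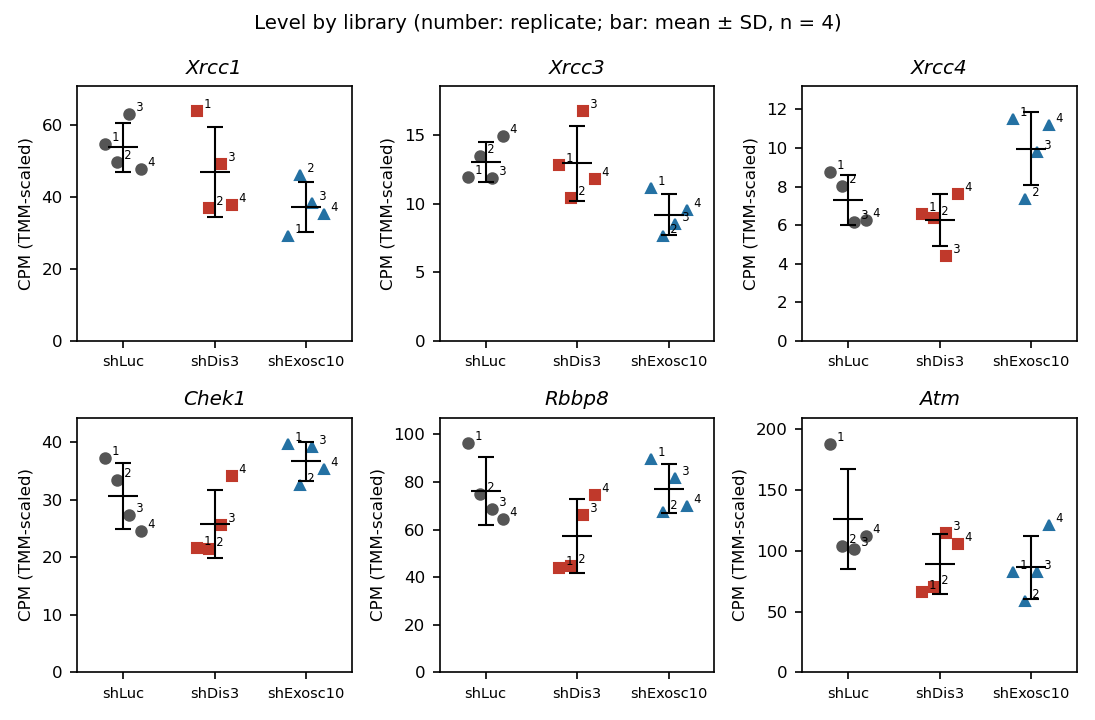
Level in TMM-scaled CPM of 6 genes that had low p-values or a wide spread (Xrcc1, Xrcc3, Xrcc4, Chek1, Rbbp8 and Atm), by group; each symbol is 1 library with its replicate number, and bars show mean ± SD (n = 4). Xrcc1 and Xrcc3 of shExosc10 lie below all shLuc libraries, Chek1 and Rbbp8 of shDis3 replicates 1 and 2 lie below the other libraries, and no difference was called.

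As a list, the 41 genes had a median log2 fold change of −0.11 for shDis3 against shLuc, with 10 values above 0 and 31 below, where the median over all genes was 0.02 and 52.6% lay above 0. For shExosc10 against shLuc the median was −0.01 (19 above 0, 22 below, with 52.2% of all genes above 0), and for shDis3 against shExosc10 it was −0.07 (16 above, 25 below, with 51.2% of all genes above 0). These splits depend on the scale: with limma on log2(TPM + 1) the medians were 0.13 (30 above, 11 below), 0.07 (27 above, 14 below) and 0.07 (26 above, 15 below), where all genes had 0.11, 0.03 and 0.07. The median of −0.11 also rested on shDis3 replicate 2, without which it was −0.01 with 19 above 0 and 22 below, and for shDis3 against shExosc10 it was 0.03 without that library. The median size of the difference regardless of sign was 0.14, 0.14 and 0.15 for the members, against 0.25, 0.23 and 0.29 for all genes.

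The pattern that recurred across routes was a difference among the shDis3 libraries, noticed in these data and given as a description with no test. The mean log2 CPM of the 41 genes was 5.18, 4.99, 5.40 and 5.43 in shDis3 replicates 1 to 4, 5.44, 5.38, 5.26 and 5.32 in shLuc, and 5.40, 5.32, 5.34 and 5.29 in shExosc10. The shLuc and shExosc10 libraries thus spanned 5.26 to 5.44, shDis3 replicates 3 and 4 lay inside that span, and replicates 1 and 2 below it. In shDis3 replicate 2, 27 of 41 members lay below all 4 shLuc libraries, against 25.8% of all genes in that library. In replicate 1 the count was 16 of 41, against 14.04% of all genes, and in replicates 3 and 4 it was 4 and 5 of 41, against 14.48% and 22.7%. The shExosc10 replicates 1 to 4 had 9, 7, 9 and 10 of 41 members below all shLuc libraries, against 22.8%, 13.1%, 15.9% and 17.1% of all genes.

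In the other direction, 13 and 12 of 41 members lay above all shLuc libraries in shDis3 replicates 3 and 4 (14.2% and 22.9% of all genes), and 14 of 41 in shExosc10 replicate 1 (21.9%). The counts were 5 and 2 in shDis3 replicates 1 and 2 (17.5% and 28.6%) and 2, 5 and 6 in shExosc10 replicates 2 to 4 (14.3%, 17.0% and 19.1%). Members that were lowest in shDis3 replicates 1 and 2 came from different routes, among them Atr, Chek1, Rnf8, Rbbp8, Nbn, Rad50, Brca1, Brca2 and Fancm, chosen here after their values were seen. Exceptions in the same libraries were Xrcc1 and Ercc1, at 63.7 and 9.70 CPM in shDis3 replicate 1, each the highest of the 12 libraries. Rad51d also had its highest value, 19.4 CPM, in shDis3 replicate 1.

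**Figure D4:**
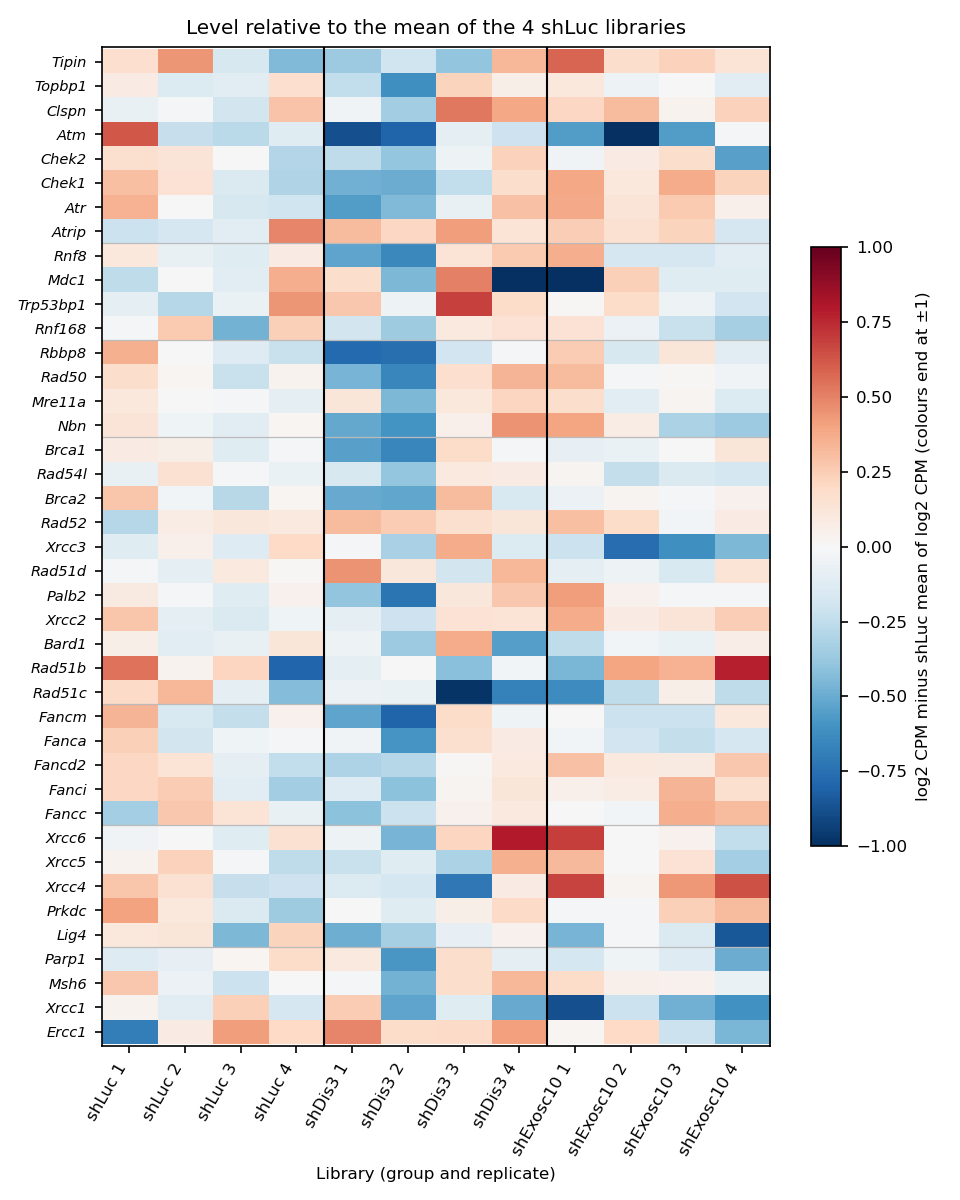
Level of each of the 41 genes in each library relative to the mean of the 4 shLuc libraries, as a difference of log2 CPM (blue lower, red higher; colours end at ±1). The columns of shDis3 replicates 1 and 2 are mostly blue, with 16 and 27 genes below all shLuc libraries, while those of shDis3 replicates 3 and 4 are mostly pale or red.

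Other gene lists were low or high in shDis3 replicates 1 and 2 as well, and their part in the pattern was not tested. The mean log2 CPM of 24 genes of G2 phase and mitosis was 6.79, 6.57, 6.99 and 7.20 in shDis3 replicates 1 to 4 6.97 to 7.05 in shLuc, and 7.18, 6.99, 7.04 and 6.90 in shExosc10 replicates 1 to 4. That of 40 S phase genes was 6.38, 6.06, 6.47 and 6.60 in shDis3, 6.44 to 6.57 in shLuc, and in shExosc10 it was 6.61 in replicate 1 and at most 6.41 in replicates 2 to 4. Of 24 G2 and mitosis genes, 16 and 21 lay below all shLuc libraries in shDis3 replicates 1 and 2 (14.04% and 25.8% of all genes). In shExosc10 replicate 4 it was 11, against 17.1%. Above all shLuc libraries lay 15 in shDis3 replicate 4 (22.9%) and 11 in shExosc10 replicate 1 (21.9%). Of 40 S phase genes, 10 and 28 lay below all shLuc libraries in shDis3 replicates 1 and 2. The counts were 12, 16 and 15 in shExosc10 replicates 2 to 4, against 13.1%, 15.9% and 17.1% of all genes. Above all shLuc libraries lay 12 S phase genes in shDis3 replicate 4 and 16 in shExosc10 replicate 1. In shExosc10 replicates 2 to 4 the mean over the 41 repair genes was 5.32, 5.34 and 5.29. Their G2 and mitosis means lay inside the shLuc range in replicates 2 and 3 and below it in replicate 4. How the lists relate to each other was not tested. The mean log2 CPM of 12 granulocyte precursor markers was 6.29, 6.15, 4.69 and 4.78 in the shDis3 libraries, 4.68 to 5.24 in shLuc and 4.81 to 5.39 in shExosc10, with none of the 12 at 0 in any library. The summed level of the 12 granulocyte markers was 1098 to 4292 CPM in shLuc, 2140 to 4929 CPM in shDis3 and 1353 to 2121 CPM in shExosc10. Markers of megakaryocytes did not follow the difference among the shDis3 libraries. The mean log2 CPM of 11 such markers was 3.93 to 4.04 in shDis3. It was 1.61, 1.92, 2.48 and 4.09 in shLuc replicates 1 to 4, and 3.78, 2.83, 2.36 and 2.56 in shExosc10. The highest values of these 2 groups were in shLuc replicate 4 and shExosc10 replicate 1, both among the libraries set apart. For shDis3 against shLuc, 11 of 11 markers had fitted values above 0 (52.6% of all genes) and none was called. Their summed level was 101 to 531 CPM in shLuc, 382 to 494 CPM in shDis3 and 174 to 395 CPM in shExosc10, and Gp6 was at 0 in shLuc replicate 1. In bulk RNA, fewer cells of a type and less RNA per cell cannot be told apart. The shDis3 replicate 2 library also had the fewest counts and the most counts on olfactory receptor genes, 665 CPM against 7.3 to 360 CPM in the other libraries, genes not known for a role in blood cells.

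The genes that p53, the transcription factor downstream of ATM and ATR, is known to activate were read in the same fits. Of 30 targets, 26 had fitted values above 0 for shDis3 against shLuc, with a median of 0.57, 0 called and 11 at an unadjusted p under 0.05 (4.07% of all genes). Without shLuc replicate 4 the median was 0.42 with 7 at that p, against 11.2% of all genes. Without the 3 libraries set apart it was 0.44, with 2 called (4.04% of all genes) and 10 at that p (16.7% of all genes). For shExosc10 against shLuc 20 of 30 were above 0, with a median of 0.10, 0 called and 0 at that p, and without shLuc replicate 4 it was 14 of 30 with a median of −0.03. The mean log2 CPM of the targets was 5.43, 5.14, 4.49 and 5.08 in shDis3, 4.75, 4.66, 4.72 and 3.90 in shLuc, and 4.24, 4.85, 4.93 and 4.57 in shExosc10. The shDis3 replicate 3 lay within the control range, shLuc replicate 4 lay below all other libraries, and shExosc10 replicates 2 and 3 lay above all of shLuc. In the lists of cell-cycle genes, the medians for shDis3 and shExosc10 against shLuc were −0.07 and −0.04 for S phase and −0.07 and 0.03 for G2 and mitosis, with 0 called. On log2(TPM + 1) they were 0.13 and 0.02 for S phase and 0.12 and 0.07 for G2 and mitosis.

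A further 97 genes of the DNA damage response, listed by textbook role, gave 0 called genes in each comparison. Their medians were 0.00, −0.03 and 0.05 for shDis3 against shLuc, shExosc10 against shLuc and shDis3 against shExosc10. Of them, 4, 2 and 9 had an unadjusted p under 0.05, against 4.07%, 2.10% and 5.98% of all genes. Without the 3 libraries set apart, 1, 0 and 4 of the 97 were called, against 4.04%, 0.0157% and 3.23% of all genes. On log2(TPM + 1) the medians were 0.17, 0.02 and 0.18. In shDis3 against shLuc, the 32 further genes of excision and mismatch repair had 23 values above 0 and a median of 0.10, and the 11 further break-marking genes had 2 above 0 and a median of −0.21, which was 0.10 with 9 above 0 on log2(TPM + 1). The smallest p belonged to Aplf, an end-joining factor that binds poly(ADP-ribose), named here after its values were seen. It had −1.01 (SE 0.26, adjusted p = 0.823) for shDis3 against shLuc and −0.92 (SE 0.26, adjusted p = 0.666) for shDis3 against shExosc10.

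The deposited tables also give a length for each gene, the mean over its transcripts weighted by their estimated abundance, which moves when the estimated mix of transcripts changes. It was identical in all 12 libraries for Bard1 (5659 bases) and Xrcc5 (2549 bases), and moved by 1.01-fold for Nbn. Chek1 had 2224, 1997, 2030 and 1476 bases in shLuc, 1881, 2063, 1465 and 1275 bases in shDis3, and 2151, 2174, 1955 and 2166 bases in shExosc10. Short values occurred in shLuc replicate 4 and shDis3 replicates 3 and 4, and none of the shExosc10 libraries was below 1955 bases. Brca1 had 3591 to 4175 bases in shDis3, 2786 to 3777 bases in shLuc and 2469 to 3621 bases in shExosc10, so the ranges overlapped. Xrcc3 varied most, by 1.98-fold, with 1304 to 2422 bases in shLuc, 1226 to 1531 in shDis3 and 1304 to 1598 in shExosc10. Since TPM divides by this length, the scale on which a gene is read bears on such genes, and these lengths were not tested.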

How the data were processed

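RNA of 12 libraries in 3 groups of 4 was analysed, with group and replicate taken from the sample titles. Per the file headers, the authors deposited RSEM expected counts (estimated read counts that need not be whole), TPM and a length per gene. STAR 2.5.3a, RSEM 1.3.0 and the build GRCm38 (mm10) are named, per the submitters' processing notes. The sources used here give neither the annotation release nor the strand setting nor filters, so counts of overlapping or antisense genes are uncertain. Symbols and coordinates came from a GENCODE annotation of the same build, which matched 54487 of 55385 identifiers with their version and 55144 without it.

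Expected counts were rounded (4.5% were not whole) and tested with edgeR 4.0.16 in R 4.3.3 (quasi-likelihood F-test, TMM, default filter by group, group as the only term, Benjamini-Hochberg over 17650 genes, threshold 0.05, two-sided). The biological coefficient of variation was 60% when estimated as 1 value common to all genes, which differs from the gene-by-gene values in the results. The prior degrees of freedom of the fit were 5.45. Library means of log2 CPM used a prior count of 2. Alternatives used DESeq2 1.42.0, limma 3.58.1 on log2(TPM + 1), no filter, the 2 groups compared alone, the replicate number, clusters of libraries, and left-out libraries. The script was tested on simulated counts that lacked the clusters of libraries seen here, which checks the code and not what these data can detect. No libraries agreed within sampling noise (lowest chi-square per degree of freedom 10.7). Fold changes, SE and adjusted p are given for the 5 members with the smallest p per comparison, and for the member of each route with the smallest p against shLuc; libraries are listed at least for the highest gene of each route, and others by interval. The members and lists were chosen with earlier results of these data known.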

Additional observations from a re-analysis of the deposited data

Results flagged for a closer look

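In 6 of 123 sets of 4 libraries (41 genes in 3 groups), 1 library stood apart by Dixon's criterion (the gap to the nearest library as a share of the whole range, above the 95% critical value). Chance flags about 1 in 20 such sets, so 6 is close to what chance gives. Atm was at 187 CPM in shLuc replicate 1, against 101 to 112 CPM in the other shLuc libraries. Rad52 was at 11.4 CPM in the same library, against 14.7 to 15.1 CPM. Atrip was at 26.98 CPM in shLuc replicate 4, against 16.6 to 17.9 CPM. The other 3 concern shExosc10 replicate 1, a library whose nearest neighbour over all genes was shDis3 replicate 4. There Rnf8 was at 57.3 CPM (39.7 to 41.3 CPM in the other shExosc10 libraries), Rad50 at 168 CPM (132 to 136 CPM) and Palb2, the bridge between BRCA1 and BRCA2, at 33 CPM (24.4 to 25.5 CPM).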

How the results depend on the processing

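The count of called members was 0 in each comparison under all 20 alternatives, the replicate block included. Of 420 values of named members under alternatives, 417 kept their direction and side of the threshold and 3 turned. With limma on log2(TPM + 1), Chek1 was 0.21 for shDis3 against shLuc and 0.07 against shExosc10, and the member medians moved to 0.13 and 0.07; without shExosc10 replicate 1, Rad50 was −0.01 against shLuc, and 0.15 at most over the libraries left out (without shLuc replicate 1). The cause was not tested. Leaving out each library in turn, called members stayed from 0 to 0, and the medians ran from −0.18 (without shDis3 replicate 4) to −0.01 (without shDis3 replicate 2) for shDis3 against shLuc, from −0.01 to 0.06 for shExosc10 against shLuc, and from −0.18 (without shDis3 replicate 4) to 0.03 (without shDis3 replicate 2) for shDis3 against shExosc10. With the replicate block the medians were −0.12, −0.01 and −0.08 with 0 members called. Of 12 same-numbered pairs 7 correlated above 0.1 (range −0.47 to 0.77), and 4 of 12 libraries correlated best with their own number, so the numbers were not taken to pair the libraries. Calls over all genes, 0, 1 and 2 in the 3 comparisons, were 28, 6 and 62 with DESeq2, 123, 10 and 179 without the filter, and 772, 3 and 617 with replicate 4 of shLuc, replicate 4 of shDis3 and replicate 1 of shExosc10 left out together; without shLuc replicate 4 alone, shDis3 against shLuc gave 146. Without those 3 libraries, 7, 2 and 7 members had an unadjusted p under 0.05, against 16.7%, 3.61% and 15.7% of all genes. Each member had at least 70 counts in each library, and counting error weighed most on the lowest members. The spread between libraries, which includes that error, sets the limit.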
